A study of Mus musculus with 6 samples.

Results

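Lipid droplet and sterol efflux genes were followed in the mouse retina after damaging light, with and without minocycline. The group holds 10 genes, Plin2, Plin3, Plin4, Soat1, Abca1, Abcg1, Nr1h3, Ch25h, Fabp4 and Fabp5. They were taken by gene symbol from the deposited table of counts, which listed 10 of the 10 among 23420 genes. The samples were whole retinas of albino mice, labelled as strain CD1, whereas the methods of the study describe BALB/cJ mice of both sexes, aged 10 to 14 weeks. Control mice had no light exposure, light-exposed mice received white light of 10000 lux for 1 h per the labels, and minocycline mice received the same light and, once a day for 4 days, an intraperitoneal dose of 45 mg/kg. Minocycline is a tetracycline antibiotic known to dampen microglial activation. Retinas were taken 4 days after light, and each group held 2 libraries described as biological replicates. The methods give a brighter light and a longer course of injections than the labels. No group received minocycline without light, so an effect of the drug on its own cannot be told apart from its effect in light-exposed retinas. The study states no vehicle injection for the sequenced mice with light alone, so effects of injection and of drug cannot be told apart either.

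Cells store surplus fatty acids and sterols as triglycerides and sterol esters in lipid droplets, whose surface is coated by perilipins. Sterols leave the cell through ATP-binding cassette transporters that load apolipoproteins, and their expression is driven by liver X receptors when oxysterols accumulate. In the retina, microglia and macrophages that take up dying photoreceptors face a large load of membrane lipid, and Müller glia and pigment epithelium also handle lipids.

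Total counts ranged from 15205930 to 22856922 per library, and 3 counts, the limit that a count of 0 allows, equal 0.131 to 0.213 CPM, the count scaled to a common library size after TMM adjustment. Intervals and limits describe counting error alone, as PCR copies of 1 molecule can be read more than once. Control replicate 1 came from a female by its 77778 counts of Xist, the RNA of the inactive X chromosome, against 25 to 188 in the other libraries. The libraries also differed in markers of cells outside the neural retina. The summed level of 13 corneal and conjunctival epithelium markers was 2.96 to 18.3 CPM in the control and light-exposed libraries. It was 214 and 310 CPM in the minocycline libraries. The sum of 11 pigment cell markers was 154 to 421 CPM in all libraries but minocycline B, which held 1556 CPM. This sum hides opposite patterns. Dct, Tyrp1, Tyr, Mlana and Pmel were higher in both minocycline libraries than in all others. Dct measured 149 CPM in minocycline A and 655 CPM in minocycline B, against 11.1 to 41.4 CPM in the control and light-exposed libraries. Rpe65, Lrat, Ttr, Rdh5 and Rgr stayed below control replicate 2 in both minocycline libraries. Both minocycline libraries carry the same column name and are therefore called minocycline A and minocycline B. In bulk tissue, fewer cells of a type and less RNA per cell cannot be told apart.

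The first comparison asked which of these genes differ 4 days after light. Ch25h passed the filter on low counts only through the light-exposed libraries, so it had to differ and is left out of the counts here. Of the other 9 genes, 4 rose (Plin3, Plin4, Abca1 and Fabp5) and 1 fell (Abcg1) with edgeR (quasi-likelihood test, Benjamini-Hochberg adjusted p under 0.05), whereas 7.52% of 14349 tested genes were called higher and 3.8% lower. With a log2 fold change of at least 2 also required, 3 genes were called higher (Plin3, Plin4 and Fabp5), against 2.89% of all tested genes, and 0 were called lower, against 0.0279%. The libraries did not overlap for 6 higher genes, against 30.6% of all tested genes, and for 1 lower gene, against 30.3%. The median log2 fold change of the 9 genes was 1.40, against 0.00 for all tested genes. Without control replicate 1 no member was called, and none without control replicate 2, when across all genes 4 and 57 calls were left. When light-exposed replicate 1 was left out 6 were higher, against 11.4% of all tested genes, and for light-exposed replicate 2 it was 5, against 3.05%.

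**Figure D1:**
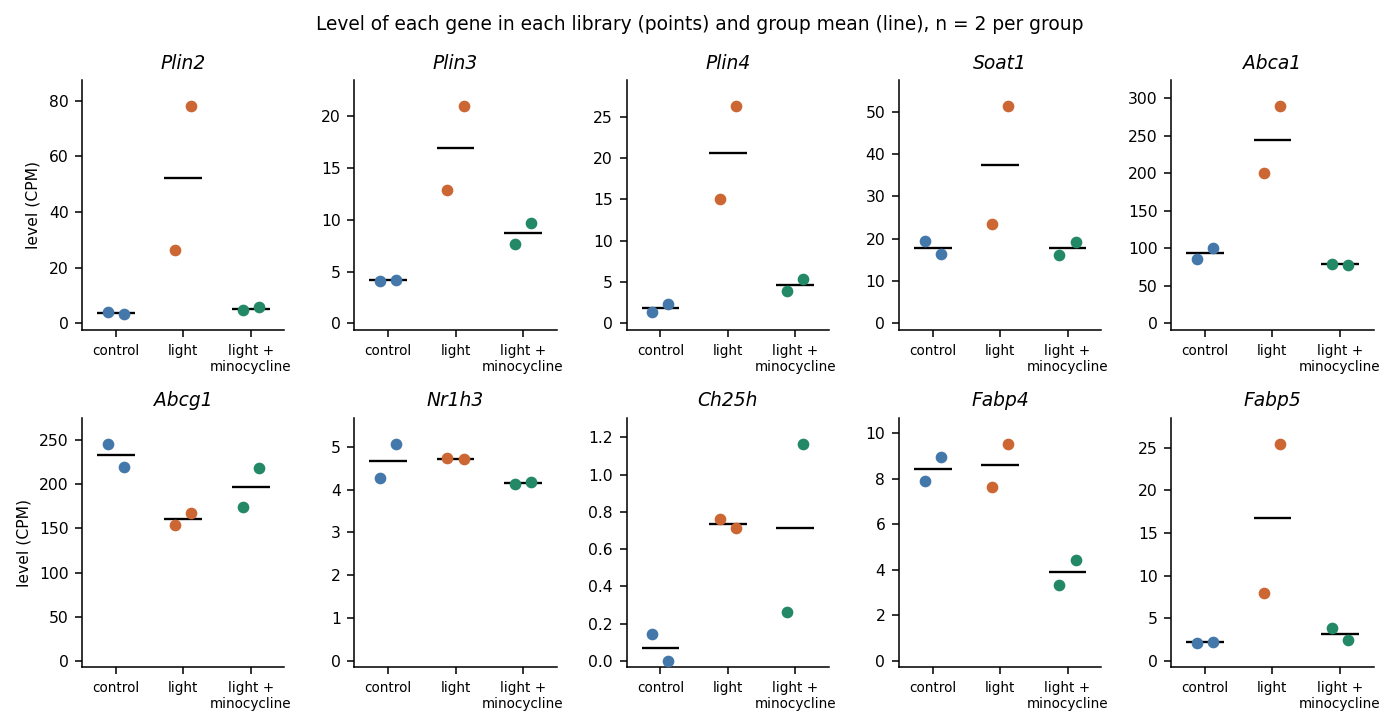
Level of each gene in CPM (vertical axes, linear) in the 2 control, 2 light-exposed and 2 minocycline libraries. Points are libraries and horizontal bars are group means. Plin2, Plin4 and Fabp5 stood highest in light-exposed replicate 2, at 78.0, 26.3 and 25.5 CPM, whereas Nr1h3 stayed between 4.14 and 5.07 CPM in all libraries.

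Among the perilipins, Plin2, the coat protein found on droplets of most cell types, is often used as a marker of droplet load. It measured 4.05 and 3.52 CPM in control, 26.4 and 78.0 CPM in light-exposed, and 4.75 and 5.72 CPM in the minocycline libraries. Both light-exposed libraries lay above all others, and they differed from each other by 2.96 times. The light-exposed mean was 52.2 ± 36.5 CPM (SD, n = 2) against 3.79 ± 0.375 CPM in control. The log2 fold change was 3.79 (SE 0.72), the highest of the 10 genes, but it missed the threshold at an adjusted p of 0.0668 in edgeR. Plin2 passed in 8 of 14 alternative settings, among them DESeq2 (adjusted p = 3.46e-05) and the fit of all 6 libraries (adjusted p = 0.0243). Leaving out light-exposed replicate 1 gave a log2 fold change of 4.36 and leaving out light-exposed replicate 2 gave 2.80. Without control replicate 1 or 2 it was 3.88 or 3.68. Without a filter on low counts Plin2 did not pass in edgeR (adjusted p = 0.169).

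Plin4, a perilipin abundant in fat and muscle, showed the clearest difference. It measured 1.42 and 2.32 CPM in control, 15.02 and 26.3 CPM in light-exposed, and 3.96 and 5.41 CPM in the minocycline libraries. The 3 groups did not overlap, with the minocycline libraries between control and light. Plin4 rose 11.0-fold after light (log2 fold change 3.46, SE 0.37, adjusted p = 0.00346). Without control replicate 1 or 2 the log2 fold change was 3.14 or 3.85, at adjusted p of 0.0648 and 0.0642.

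Plin3, a perilipin that moves from the cytosol to newly formed droplets, rose less. It measured 4.05 and 4.23 CPM in control, 12.9 and 20.9 CPM in light-exposed, and 7.62 and 9.70 CPM in the minocycline libraries. These groups did not overlap either, and the minocycline libraries again lay in between. The fold change after light was 4.09 (log2 fold change 2.03, SE 0.30, adjusted p = 0.00806), and without control replicate 1 or 2 the adjusted p was 0.0661 and 0.0889.

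Plin4 lies on chromosome 17 (GRCm38, 56100591 to 56109803, minus strand), next to its family member Plin5, 1797 bases away. Plin5, which coats droplets in oxidative tissue, held 1 and 1 counts in control, 7 and 14 in light-exposed and 5 and 1 in the minocycline libraries and was too low to be tested. On the other strand Plin4 shares 17 exon bases with Hdgfl2, listed as Hdgfrp2, whose log2 fold change after light was -0.41 (SE 0.14, adjusted p = 0.0844), and whether counting used the strand is not given in the sources used here. Plin3 lies on the same chromosome (56277476 to 56292873, minus strand), and Plin2 lies on chromosome 4 (86648386 to 86670060, minus strand).

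The sequence upstream of Plin2 and of Plin4 was read because both had the largest changes among the perilipins. RefSeq promoters of the build GRCm38.p6 were matched for 7 of the 10 genes, all but Abcg1, Fabp4 and Fabp5. The 250 bases before the start of Plin2 (chr4:86670060-86670309, minus strand) are printed 5′ to 3′, with the nuclear receptor hexamer AGGTCA, found on the opposite strand 218 to 213 bases before the start, in capitals. Plin4 (chr17:56109783-56110032, minus strand) held none of the motifs searched and is printed without capitals.
Plin2: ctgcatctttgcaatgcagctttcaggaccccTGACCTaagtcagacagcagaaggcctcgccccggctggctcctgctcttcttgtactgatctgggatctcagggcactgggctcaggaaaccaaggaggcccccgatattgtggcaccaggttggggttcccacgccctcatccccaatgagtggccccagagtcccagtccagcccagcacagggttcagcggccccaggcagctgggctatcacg
Plin4: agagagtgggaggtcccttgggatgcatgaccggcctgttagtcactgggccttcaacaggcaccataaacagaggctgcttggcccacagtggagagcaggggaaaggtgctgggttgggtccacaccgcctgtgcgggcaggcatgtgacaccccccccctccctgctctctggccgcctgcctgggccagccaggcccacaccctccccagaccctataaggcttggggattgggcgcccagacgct

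The letters AGGTCA, searched on both strands, occurred in 14% of the 32851 mouse promoters of the same length. A match describes the letters only, and no binding was measured.

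Soat1 encodes the acyltransferase that esterifies cholesterol for storage in droplets. It measured 19.4 and 16.4 CPM in control, 23.6 and 51.3 CPM in light-exposed, and 16.2 and 19.3 CPM in the minocycline libraries. Both light-exposed libraries lay above the others, but light-exposed replicate 1 only narrowly. The log2 fold change after light was 1.07 (SE 0.38) and did not pass (adjusted p = 0.137). Its size rested on light-exposed replicate 2, since it was 0.40 when that library was left out and 1.52 when replicate 1 was.

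Abca1 transfers cholesterol and phospholipid to lipid-poor apolipoproteins. It measured 86.3 and 99.9 CPM in control, 199.8 and 289 CPM in light-exposed, and 79.2 and 78.3 CPM in the minocycline libraries. The light-exposed libraries lay above all others, and the minocycline libraries lay below both controls. Abca1 rose 2.63-fold after light (log2 fold change 1.40, SE 0.19, adjusted p = 0.00806), and without control replicate 1 or 2 the adjusted p was 0.0721 and 0.0929.

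Abcg1, which hands cholesterol on to mature lipoprotein particles, moved the other way. It measured 246 and 220.1 CPM in control, 154 and 168 CPM in light-exposed, and 174 and 218 CPM in the minocycline libraries. The light-exposed libraries lay below all others. Abcg1 fell by 0.53 on the log2 scale after light (SE 0.15, adjusted p = 0.0465). The call was lost in 9 of 14 alternatives, among them scaling by total library size, where the log2 fold change was -0.29 (adjusted p = 0.200), and each fit that left out 1 library (adjusted p of 0.0978 to 0.273). Under that scaling, all tested genes had a median log2 fold change of 0.24.

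The promoter of Abca1 is shown because Abca1 is a known target of liver X receptors, which bind a repeat of the hexamer spaced by 4 bases. The strict repeat, AGGTCA followed by 4 bases and a further AGGTCA, was absent from the promoters of all 7 genes and present in 0.0152% of all promoters. A relaxed form, with the first base of both hexamers and the C of the first hexamer left free, was chosen with the Abca1 element known, and it occurred in 0.177% of all promoters. Abca1 held it on the opposite strand 67 to 52 bases before the start, together with an E-box (CACGTG, 147 to 142 bases before the start, in 6.02% of promoters) and a TATA box (TATAAA, 29 to 24 bases before the start, in 12.4%). The 250 bases (chr4:53159896-53160145, minus strand, GRCm38.p6) follow 5′ to 3′ with these 3 elements in capitals.
Abca1: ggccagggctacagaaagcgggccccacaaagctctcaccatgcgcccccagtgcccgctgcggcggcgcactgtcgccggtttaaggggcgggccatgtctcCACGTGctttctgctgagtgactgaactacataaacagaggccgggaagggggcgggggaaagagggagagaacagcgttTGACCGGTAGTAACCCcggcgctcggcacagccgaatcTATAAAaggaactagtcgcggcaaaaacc

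Ch25h was the only other gene of the 7 with a match apart from Plin2 and Abca1, a TATA box 151 to 146 bases before the start. A PPAR element (a pair of AGGTCA hexamers spaced by 1 base, in 0.0335% of promoters), a PU.1 site (GAGGAAGT, in 2.44%), an AP-1 site (TGANTCA, in 6.75%) and an SREBP element (in 0.0731%) were in none of the 7.

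Nr1h3 encodes liver X receptor alpha, which drives Abca1 and Abcg1 transcription. It measured 4.27 and 5.07 CPM in control, 4.73 and 4.70 CPM in light-exposed, and 4.14 and 4.19 CPM in the minocycline libraries. The control and light-exposed libraries overlapped. Its log2 fold change after light was 0.02 (SE 0.32, adjusted p = 0.977).

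Ch25h encodes the enzyme that makes 25-hydroxycholesterol, an oxysterol released by activated macrophages. It held 2 and 0 counts in control, 13 and 15 in light-exposed, and 6 and 22 in the minocycline libraries. The control libraries were at the limit of detection, and the minocycline libraries spanned both light-exposed values. The ratio of light-exposed to control was 10.4 (95% exact counting interval 2.61 to 89.8). Its size rested on control replicate 1, which held both control counts. The fitted log2 fold change was 3.25, against 2.31 without control replicate 2 and 6.69 without control replicate 1, a value that depends on the prior count since the control is then at 0. The adjusted p was 0.0375 in edgeR, but 0.194 in DESeq2, 0.102 in the fit of all 6 libraries and 0.0804 to 0.234 when 1 library was left out.

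Ch25h lies on chromosome 19 (34473778 to 34475164, minus strand), 17153 bases from Lipa, which encodes the lysosomal lipase that frees cholesterol from its esters. Lipa measured 6.54 and 6.55 CPM in control, 23.7 and 66.5 CPM in light-exposed, and 14.02 and 21.7 CPM in the minocycline libraries. Its groups did not overlap, and its log2 fold change after light was 2.79 (SE 0.61, adjusted p = 0.0749).

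The fatty acid-binding proteins shuttle fatty acids through the cytosol. Fabp5, the epidermal type, which macrophages also express, measured 2.06 and 2.25 CPM in control, 8.01 and 25.5 CPM in light-exposed, and 3.88 and 2.44 CPM in the minocycline libraries. Both light-exposed libraries lay above all others and differed from each other by 3.18 times. Fabp5 rose 7.78-fold after light (log2 fold change 2.96, SE 0.61, adjusted p = 0.0375). Without light-exposed replicate 2 the log2 fold change was 1.89, and without control replicate 1 or 2 the adjusted p was 0.240 and 0.293. A processed pseudogene copy of Fabp5 exists, so reads may be split between near-identical copies and its level is uncertain.

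Fabp4, known from adipocytes, vessel endothelium and macrophages, measured 7.89 and 8.95 CPM in control, 7.66 and 9.55 CPM in light-exposed, and 3.35 and 4.45 CPM in the minocycline libraries. Control and light-exposed libraries overlapped and the minocycline libraries lay below all of them. The log2 fold change after light was 0.04 (SE 0.27, adjusted p = 0.942). Fabp4 and Fabp5 share a cluster on chromosome 3 with Fabp9 and Fabp12, and of these Fabp12, which is expressed in retina, fell from 195.5 ± 17.0 CPM in control to 107 ± 15.2 CPM in light-exposed retinas (log2 fold change -0.86, SE 0.16, adjusted p = 0.0141).

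**Figure D2:**
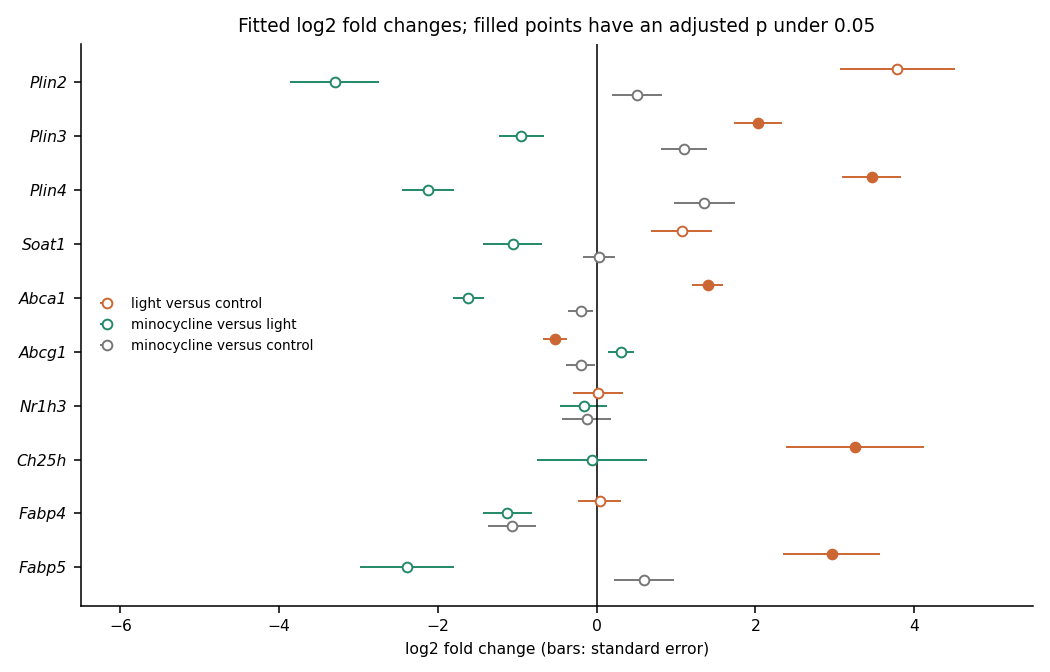
Fitted log2 fold change of each gene (horizontal axis) in the 3 comparisons, with standard errors as bars. Filled points have an adjusted p under 0.05 in edgeR, and all of them belong to light versus control, with Plin3, Plin4, Abca1, Fabp5 and Ch25h (tested only through its light-exposed libraries) higher and Abcg1 lower.

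The second comparison asked how minocycline retinas differ from retinas with light alone. None of the 10 was called in edgeR, where 0.0136% of 14750 tested genes were called higher and 0.0407% lower, and 0.0339% lower with a log2 fold change of at least 2. At an unadjusted p under 0.05, 7 were lower, against 12.1% of all tested genes, and 0 higher, against 9.04%, and the libraries did not overlap for 8 lower genes, against 28.8%, and 1 higher gene, against 26%. The median log2 fold change of the 10 was -1.09, against 0.01 for all tested genes. The counts depended on the tool. DESeq2 called 5 lower (Plin2, Plin4, Abca1, Soat1 and Fabp5), where it called 4.98% of all tested genes lower. The fit of all 6 libraries called 3 lower (Plin2, Plin4 and Abca1), where 2.4% of all tested genes were. In edgeR 6 were lower when light-exposed replicate 1 was left out, against 4.64% of all tested genes, and 1 when light-exposed replicate 2 was, against 0.18%. Both comparisons share the light-exposed libraries, so their directions are not independent.

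The fitted differences were largest for Plin2, with a log2 fold change of -3.30 (SE 0.57, adjusted p = 0.0761). Fabp5 followed at -2.39 (SE 0.59, adjusted p = 0.110), and Plin4 at -2.13 (SE 0.33, adjusted p = 0.0698). Without light-exposed replicate 2 these log2 fold changes were -2.34 for Plin2, -1.34 for Fabp5 and -1.69 for Plin4, so the order of Fabp5 and Plin4 turned. Among the sterol genes, Abca1 differed by -1.62 (SE 0.20, adjusted p = 0.0638) and Soat1 by -1.06 (adjusted p = 0.193), or by -0.41 without light-exposed replicate 2. Fabp4 differed by -1.12 (SE 0.31, adjusted p = 0.110) and Plin3 by -0.95 (SE 0.29, adjusted p = 0.135). Abcg1 was the gene whose libraries lay higher with minocycline, at 0.31 (adjusted p = 0.344). Nr1h3 differed by -0.16 (adjusted p = 0.799). The ratio of minocycline to light-exposed counts of Ch25h was 0.912 (95% exact counting interval 0.521 to 1.60), and minocycline A lay below and minocycline B above both light-exposed libraries.

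The third comparison set minocycline retinas against control. Of 9 tested genes none was called in edgeR, where 0.162% of 14181 tested genes were called higher and 0% lower. In this comparison 2 genes were higher (Plin3 and Plin4) and 1 lower (Fabp4) at an unadjusted p under 0.05, against 5.39% and 1.62% of all tested genes, and 4 genes were higher and 4 lower in both minocycline libraries than in both controls, against 15.9% and 24%. DESeq2 called 0 as well. Leaving out minocycline A gave higher calls for Plin3 and Plin4, against 2.82% of all tested genes, and for Ch25h, which is not counted since it passed the filter on low counts only through minocycline B. Leaving out minocycline B gave 1 lower call (Fabp4), against 0.292%. The log2 fold change was 1.36 for Plin4 (SE 0.39, adjusted p = 0.356) and 1.11 for Plin3 (SE 0.29, adjusted p = 0.287). Plin2 differed by 0.51 (SE 0.31, adjusted p = 0.742), Fabp5 by 0.60 (adjusted p = 0.742) and Abca1 by -0.20 (adjusted p = 0.752). Fabp4 differed by -1.07 (SE 0.30, adjusted p = 0.344). Ch25h was below the filter here, and its count ratio of minocycline to control was 9.46 (95% exact counting interval 2.38 to 81.9).

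Per kilobase of mRNA, the order of levels changed with light. In control Abcg1 was highest at 39.9 ± 3.13 CPM per kb (SD, n = 2), followed by Fabp4 at 9.40 ± 0.832 and Abca1 at 9.07 ± 0.935 CPM per kb, which did not differ beyond their spread. Nr1h3, Fabp5, Soat1 and Plin2 lay between 2.01 and 2.39 CPM per kb, also within their spread. Plin3 at 1.14, Plin4 at 0.325 and Ch25h at 0.0513 CPM per kb were lowest. In light-exposed retinas Plin2 (27.6 ± 19.3 CPM per kb), Abcg1 (27.6 ± 1.64), Abca1 (23.8 ± 6.15) and Fabp5 (17.0 ± 12.5) were highest and did not differ beyond the spread of Plin2 and Fabp5. In minocycline retinas Abcg1 was again highest at 33.7 ± 5.33 CPM per kb, with Abca1 at 7.67, Fabp4 at 4.36, Fabp5 at 3.20 ± 1.03 and Plin2 at 2.77 ± 0.366 CPM per kb.

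Microglia and macrophage markers were compared library by library with the 10 genes. The summed level of 16 markers was 69.8 and 82.8 CPM in control, 683 and 2249 CPM in light-exposed, and 143 and 70.1 CPM in the minocycline libraries. All 16 were higher in both light-exposed libraries than in both controls, against 30.6% of all tested genes, and 5 were called higher, against 7.52%, with a median log2 fold change of 4.17. After light Abcg1 fell, while Nr1h3 and Fabp4 had log2 fold changes of 0.02 and 0.04, and between minocycline and light that of Ch25h was -0.06 against a median of -3.63 for the markers. Between the light-exposed replicates, the sum differed by 3.29 times, Fabp5 by 3.18, Plin2 by 2.96, Soat1 by 2.18, Plin4 by 1.75, Plin3 by 1.63, Abca1 by 1.45 and Fabp4 by 1.25 times, while Abcg1, Nr1h3 and Ch25h differed by 0.938 to 1.09 times. Within minocycline, minocycline B stood at 0.490 times minocycline A for the marker sum and 0.629 times for Fabp5, but at 1.21, 1.27 and 1.36 times for Plin2, Plin3 and Plin4. The ratio was 4.46 for Ch25h (22 against 6 counts), 1.33 for Fabp4, 1.25 for Abcg1, 1.19 for Soat1, 1.01 for Nr1h3 and 0.990 for Abca1. The part of these cells in the results was not tested.

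**Figure D3:**
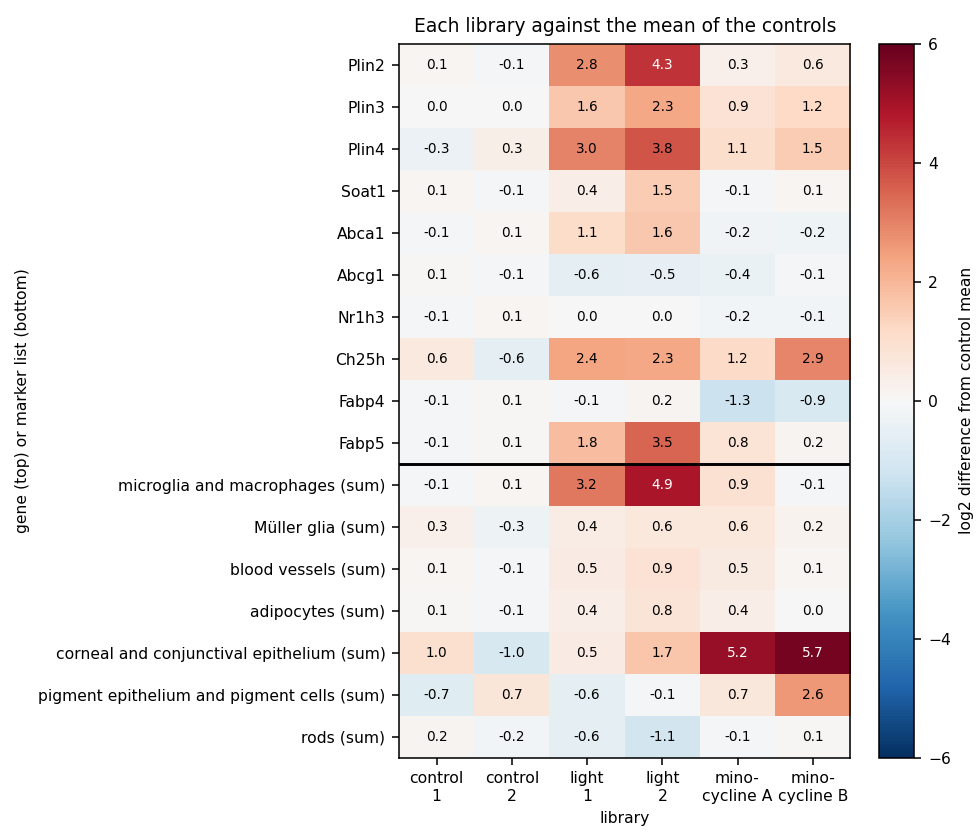
Log2 difference of each library (columns) from the mean of the controls, for the 10 genes (above the line, from log2 CPM with a prior count of 2) and for the summed level of 7 marker lists (below). Red is higher and blue lower, and light-exposed replicate 2 is the highest library for Plin2, Fabp5 and the microglia list.

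Markers of other cells were compared in the same way. Of 12 adipocyte markers only 4 passed the filter on low counts (Thrsp, Lipe, Retn and Car3). Thrsp held 151 to 469 counts, Lipe 146 to 318, Retn 33 to 135 and Car3 3 to 36, and their median log2 fold change after light was 0.56, with 1 called higher (Thrsp), against 7.52% of all tested genes. The summed level of the 12 was 27.6 and 25.6 CPM in control, 35.3 and 45.6 CPM in light-exposed, and 34.6 and 26.8 CPM in the minocycline libraries. Lep, the hormone leptin, was at 0 counts in all libraries, Adipoq, the hormone adiponectin, at 0 to 3, and Plin1, the adipocyte perilipin, at 0 to 2, whereas Fabp4 held 77 to 201. The summed level of 12 blood vessel markers was 191 to 222 CPM in control, 289 and 375 CPM in light-exposed, and 297 and 223 CPM in the minocycline libraries, where Fabp4 was lowest. Kdr alone held 112 to 254 CPM of this sum. The median log2 fold change of this list was 0.37 after light, with 1 called higher (Kdr), against 7.52% of all tested genes. Between minocycline and light that median was 0.28, with 0 called, against 0.0136% of all tested genes higher and 0.0407% lower. The sum of 9 Müller glia markers was 2869 and 1922 CPM in control, 3191 and 3649 CPM in light-exposed, and 3623 and 2700 CPM in the minocycline libraries, with 2 called higher after light (against 7.52% of all tested genes) and a median log2 fold change of 0.72. That of 10 rod markers was 102890 and 80718 CPM in control, 60524 and 43044 CPM in light-exposed, and 86985 and 94902 CPM in the minocycline libraries. The sum of 7 smooth muscle markers was 11.4 to 25.2 CPM in the control and light-exposed libraries, 74.8 CPM in minocycline A and 351 CPM in minocycline B. The sum of 9 skeletal muscle markers was 72.5 CPM in minocycline B and 6.19 to 12.8 CPM in the other libraries. The part of these cells in the results was not tested.

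Other genes of the pathways were taken from 8 lists. Of 137 tested list members, 12 rose and 13 fell after light, beside 7.52% and 3.8% of all tested genes. A further 3 tested genes with an adjusted p under 0.05 (Gpr183, Pdk4 and Angptl4) passed the filter on low counts only through the light-exposed libraries and are not counted. None was called in either minocycline comparison in edgeR. DESeq2 called 12 list members higher and 10 lower between minocycline and light, where it called 3.14% of all tested genes higher and 4.98% lower, and 7 higher between minocycline and control, where it called 1.16% higher. These counts may include genes that passed the filter on low counts only through 1 group. Gpr183 did so between minocycline and light, through the light-exposed libraries, and so had to be lower there. With total library size as the scaling, 28 of these 137 were higher and 4 lower after light, beside 13.5% and 0.927% of all tested genes. Calls of list members after light also moved in both directions with the library left out. Such fits kept 1 library in a group, so their counts are not given.

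Among partners and other targets of liver X receptors, 4 of 16 tested genes rose (25%) and 1 fell (6.25%), beside 7.52% and 3.8% of all tested genes, with a median log2 fold change of 0.13. Apoc1, an apolipoprotein of macrophages and liver, rose from 0.991 ± 0.00655 CPM in control to 7.70 ± 1.88 CPM after light and measured 0.940 ± 0.580 CPM with minocycline (light versus control, log2 fold change 2.96, SE 0.38, adjusted p = 0.00620). Apoe, the main acceptor of effluxed cholesterol in neural tissue, measured 190.2 ± 26.03, 1057 ± 633 and 357 ± 41.5 CPM in the same order (log2 fold change 2.48, SE 0.47, adjusted p = 0.0375). Smpdl3a, a phosphodiesterase, rose by 2.42 on the log2 scale (adjusted p = 0.0210). Rxra, a partner receptor, fell by 0.53 on that scale (adjusted p = 0.0349). Lpl, a lipase that hydrolyses lipoprotein triglyceride, rose by 1.32 (adjusted p = 0.0249). Lpl and Rxra were outside the rule for named genes and were chosen after their values were seen.

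Droplet and triglyceride enzymes moved both ways. Of 22 tested, 4 rose (18.2%) and 3 fell (13.6%) after light, beside 7.52% and 3.8% of all tested genes, with a median log2 fold change of 0.28. Hsd17b11, a droplet-resident dehydrogenase, rose from 5.28 ± 0.886 to 13.7 ± 6.38 CPM (log2 fold change 1.38, adjusted p = 0.0335). Acsl5 and Acsl3, which activate fatty acids, rose by 1.31 (adjusted p = 0.0296) and 0.94 (adjusted p = 0.0132).

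Of 20 tested genes of sterol storage and lysosomal release, 2 rose (10%) and 1 fell (5%), close to the 7.52% and 3.8% of all tested genes. Stard5, a sterol-binding transfer protein, rose by 1.61 on the log2 scale (adjusted p = 0.0236) and Scarb2, a lysosomal membrane protein, by 0.70 (adjusted p = 0.0275). Scarb1, the lipoprotein receptor for selective cholesterol uptake, fell by 0.65 (adjusted p = 0.0278). The median log2 fold change of this list was 0.37.

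Of 10 genes of oxysterol metabolism and sensing, Gpr183 left out, 0 rose and 1 fell after light, beside 7.52% and 3.8% of all tested genes. Rora, a nuclear receptor for sterols, fell by 0.76 on the log2 scale, from 66.4 ± 6.80 to 39.1 ± 3.74 CPM (adjusted p = 0.0179), and measured 68.2 ± 6.04 CPM with minocycline. Gpr183, the receptor for an oxysterol made from the product of Ch25h, was chosen after its values were seen and had a mean of 0.0711 CPM in control, 1.30 CPM in light-exposed and 0.0265 CPM in minocycline retinas.

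Of 18 other lipid transporters of the ABC family 1 rose (5.56%, beside 7.52% of all tested genes), Abcg2 (log2 fold change 1.03, with an adjusted p that lay just under the threshold), and 2 fell (11.1%, beside 3.8%), Abca13 by 1.10 and Abcg4 by 0.65. Abcg4, a close relative of Abcg1 found in neurons and glia, measured 243 ± 2.10 CPM in control and 155 ± 11.0 CPM in light-exposed retinas (adjusted p = 0.0235). Of 16 PPAR receptors and fatty acid oxidation genes, Pdk4 and Angptl4 left out, 1 rose (Acadl, by 1.09 on the log2 scale, adjusted p = 0.0375) and 4 fell, beside 7.52% and 3.8% of all tested genes. Ppargc1a, a coactivator of mitochondrial genes, fell by 1.22 on the log2 scale (adjusted p = 0.00620). Angptl4, a PPAR target that inhibits lipoprotein lipase, measured 0.426 ± 0.303 CPM in control, 1.85 ± 0.471 CPM in light-exposed and 1.13 ± 0.123 CPM in minocycline retinas. Of 10 other fatty acid- and retinoid-binding proteins 1 fell (10%, beside 3.8%), Fabp12.

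Sterol synthesis genes under SREBP2, which cells switch on when cholesterol is scarce, were 0 higher and 0 lower of 25 tested in each comparison in edgeR. Of all tested genes, 7.52% were higher and 3.8% lower after light. The shares were 0.0136% and 0.0407% between minocycline and light, and 0.162% and 0% between minocycline and control. DESeq2 called 0 after light, where it called 8.01% of all tested genes higher and 5.34% lower. It called 3 higher between minocycline and light (3.14% of all tested genes). Between minocycline and control it called 1 higher (1.16%), or 0 with shrinkage. Without a filter edgeR called 2 higher between minocycline and light (1.34%) and 1 higher between minocycline and control (1.01%). With the replicate block it called 1 lower after light (5.97%). The median log2 fold change of the 25 genes was -0.32 after light, with 5 lower and 0 higher at an unadjusted p under 0.05, beside 12.4% and 16.5% of all tested genes. It was 0.43 between minocycline and light, with 11 higher and 0 lower, beside 9.04% and 12.1% of all tested genes.

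**Figure D4:**
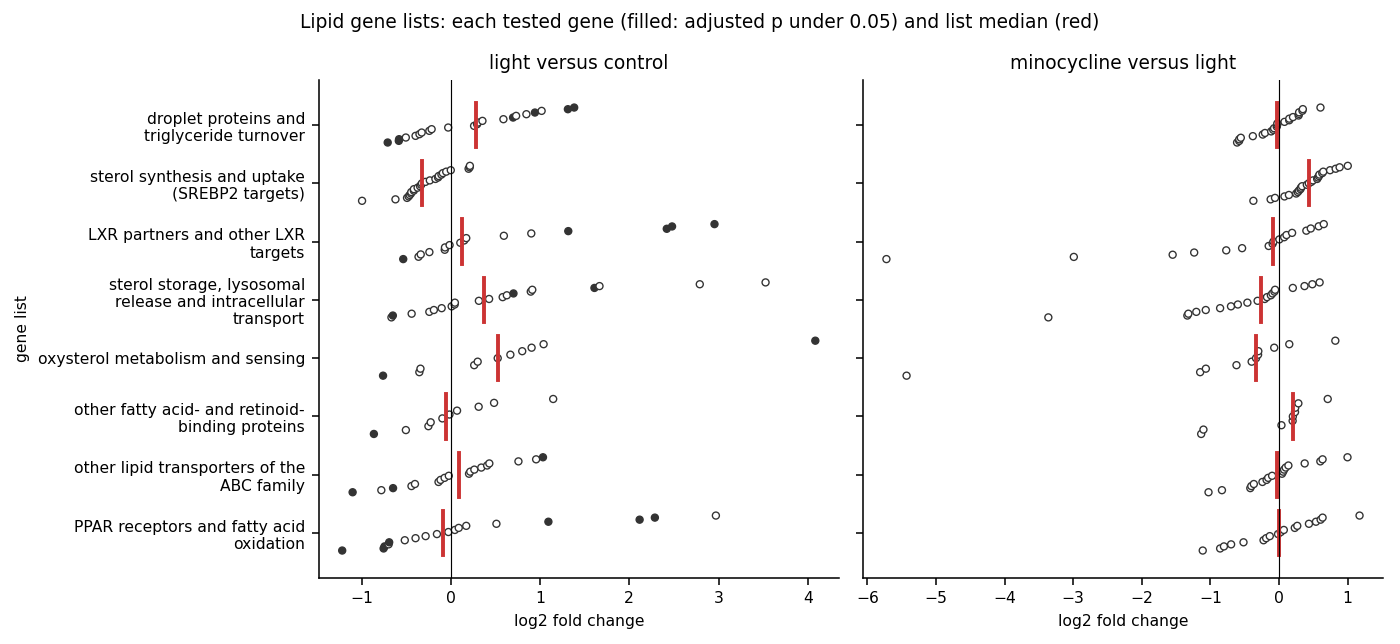
Log2 fold change (horizontal axes) of each tested gene in the 8 pathway lists, for light versus control (left) and minocycline versus light (right). Filled points have an adjusted p under 0.05 in edgeR and red bars mark list medians. On the left the 25 sterol synthesis genes hold no filled point and the liver X receptor list holds 5, and on the right none is filled.

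The genes most alike in pattern were found by Pearson's correlation of log2 CPM over the 6 libraries, among 13702 genes with a mean of at least 1 CPM, as a description, since the points share the group differences. For Plin2 they were Folr2 (r = 0.998), a folate receptor of macrophages, Ctla2b and Fcrls, and 483 genes exceeded 0.95. For Fabp5 they were Rcbtb2, Dcxr and Evi2a, with 625 genes over 0.95. For Abca1 they were Pik3ap1, Nusap1 and Tlr13, for Soat1 Tmem104, Chek2 and Il18, for Plin3 Crip1, Tgm2 and Capg, and for Plin4 Eci2, Rhog and Mvp. For Abcg1 they were Edem3, Nubp1 and Pole2, for Nr1h3 1700102H20Rik, Aoc2 and Eea1, for Fabp4 Ccdc17, Lrp2 and Col13a1, and for Ch25h Eif4e2, Angpt2 and 1810019J16Rik.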

How the data were processed

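Retinal RNA was sequenced in 6 libraries. The authors aligned single reads to mm10 with STAR, used RNA Express to assign them to genes, and deposited the resulting counts. The data statement calls the values normalized, but they were whole numbers of unequal totals and were used as raw counts. Libraries were strand-specific (dUTP). The annotation, the versions of STAR and RNA Express and whether counting used the strand are not given in the sources used here. No value column was left out (0 unused).

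Each pair of groups was tested with edgeR 4.0.16 (R 4.3.3): filterByExpr, TMM scaling, robust quasi-likelihood F test and Benjamini-Hochberg adjustment over all tested genes, with a threshold of 0.05. SE is the log2 fold change divided by the root of F. P-values measure the spread between these 2 libraries a group. Log2 CPM used a prior count of 2, and tests were tried on simulated data. DESeq2 1.42.0, other scalings, other filters, a fit of all 6 libraries, the replicate block, changed thresholds and each library left out were the alternatives. Replicates differed beyond counting noise (chi-square per degree of freedom 28.7 to 32.2). Named list genes are the 3 called with the largest change per list at a mean of at least 1 CPM. Positions come from GENCODE on GRCm38, promoters from RefSeq, and levels per kb use the longest RefSeq-matched mRNA. The members and lists were chosen with earlier results of these data known.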

Additional observations from a re-analysis of the deposited data

How the results depend on the processing

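With Ch25h included, 6 of the 10 genes were called after light, and 4 to 8 in the alternatives that kept all libraries, but 0 to 6 when 1 library was left out. The cause was not tested. Of the list genes 28 were called (3 of them tested only through the light-exposed libraries), against 6 with a log2 fold change of at least 2, 47 at an adjusted p under 0.1, and 0 to 36 when 1 library was left out. Of all tested genes 7.52% were higher and 3.8% lower at an adjusted p under 0.05. With a log2 fold change of at least 2 the shares were 2.89% and 0.0279%, and at an adjusted p under 0.1 they were 12% and 7.61%. Genes tested only through the light-exposed libraries left out, the list genes were 3 higher and 0 lower with that fold change. At an adjusted p under 0.1 they were 23 higher and 21 lower. With the replicate block, 8 of the 10 genes were called (7 higher, 1 lower), Plin2 (adjusted p = 0.000848 in edgeR) and Soat1 (0.0104) being added. The block also gave 43 list genes, where 11.6% of all tested genes were higher and 5.97% lower. Deviations of same-numbered control and light-exposed libraries had a correlation of -0.011 over 14713 genes. With 1 difference per group, this value cannot decide whether the replicate numbers pair the samples. No paired analysis was possible in the minocycline comparisons, because both minocycline columns carry the same replicate number in their header and neither could be matched to its sample.

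Between minocycline and light, 0 of the 10 genes were called, but 5 in DESeq2 with or without shrinkage, 2 without a filter, 3 with all 6 libraries, 3 at an adjusted p under 0.1, and 0 to 6 when 1 library was left out. Of list genes 0 were called, but 22 and 20 in DESeq2 without and with shrinkage, 11 without a filter, 7 with all 6 libraries, 13 at an adjusted p under 0.1, and 0 to 12 when 1 library was left out. Between minocycline and control, 0 of the 9 tested genes were called, and 0 to 3 when 1 library was left out, the 3 including Ch25h, which was tested without minocycline A. Of list genes 0 were called there, but 7 and 6 in DESeq2 without and with shrinkage, 6 without a filter and 1 at an adjusted p under 0.1. In these settings 1.16%, 0.881%, 1.01% and 0.338% of all tested genes were higher, and 0.0282%, 0.00705%, 0.0221% and 0% lower. Between minocycline and light, 3.14% and 3.06% of all tested genes were higher in DESeq2 without and with shrinkage, and 4.98% and 4.71% lower. Without a filter 1.34% were higher and 2.63% lower there. With all 6 libraries the shares were 0.918% and 2.4%, and at an adjusted p under 0.1 they were 1.88% and 4.1%.

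The direction of the log2 fold change turned in 8 cases, all of genes that were not called. After light these were Nr1h3 without control replicate 1 (-0.11; 0.14 without control replicate 2) and Fabp4 without control replicate 1 (-0.059) or light-exposed replicate 2 (-0.13; at most 0.18, without light-exposed replicate 1). Ch25h was 0.70 between minocycline and light without minocycline A and -1.46 without minocycline B. Between minocycline and control, Soat1 was -0.012 with all 6 libraries, -0.080 without control replicate 2 and -0.14 without minocycline B (0.15 without control replicate 1), and Nr1h3 was 0.012 without control replicate 2 and -0.25 without control replicate 1. Total library size in place of TMM raised the share of higher calls after light from 66.4% to 93.6% over all genes.

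With 2 libraries a group, no outlying library could be tested, and Ch25h rested on at most 22 counts per library. The size of the change of Plin2, Fabp5 and Soat1, after light and between minocycline and light, moved with light-exposed replicate 2, and that of Ch25h after light with control replicate 1.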
